A study of Caenorhabditis elegans with 6 samples.

Results

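The SKN-1 oxidative stress genes described here are skn-1, wdr-23, gst-4, gcs-1, gst-10 and gst-30 of Caenorhabditis elegans, a named set of 6 among 19973 protein-coding nuclear genes. For each gene, peak summits of the epidermal GATA factor ELT-3 were taken from a window running from 5000 bp upstream of its first annotated 5′ end to its 3′ end. A summit of the authors' optimal list, the peaks that passed their reproducibility threshold, lay in the window of 2 of the 6 genes, skn-1 and wdr-23, against 7.62% of all genes. The 4 enzyme genes, gst-4, gcs-1, gst-10 and gst-30, had none.

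The summits come from chromatin immunoprecipitation sequencing (ChIP-seq) of whole L3 larvae of mixed sex. The strain was OP75, with the genotype unc-119(ed3) III; wgIs75, whose stable transgene makes ELT-3 with a GFP-FLAG tag at its C terminus, and no oxidant or other treatment is named in the labels. All 6 libraries form 1 group of 4 biological replicates, numbered 1, 2, 4 and 5, and the 3 technical libraries of replicate 2 gave 1 list. There is no second condition, tissue or untagged group, so the data show where summits lie and how far the replicates share them, and they hold no expression values. Replicates are not stated to be separate cultures, and depth is unknown.

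SKN-1 is the worm relative of the mammalian Nrf transcription factors and activates genes that detoxify reactive compounds. The WD40 repeat protein WDR-23, with the ubiquitin ligase component CUL-4, directs SKN-1 to degradation and so holds the pathway down in unstressed animals. Among the outputs, gcs-1 encodes the catalytic subunit of the enzyme that catalyses the first step of glutathione synthesis, and gst-4, gst-10 and gst-30 encode glutathione S-transferases, which join glutathione to toxic compounds. A gst-4 reporter is a common readout of SKN-1 activity, and ELT-3 has been linked to gst-4 induction in the epidermis.

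The lists differ in what a summit means. The optimal list held 1047 peaks past the irreproducible discovery rate (IDR) threshold, and they were the 1047 strongest of the 14525 pooled peaks by the authors' signal value. The pooled list reached the windows of 62.2% of all genes, so a pooled summit alone is a common event, and 4 of the 6 genes had one. The pooled list holds background regions besides peaks: its lowest −log10 q-value was 0.0178, against 2.14 in the optimal list. A pooled summit outside the optimal list is thus not by itself a called peak. The replicate lists go deeper, with 30000 entries each, and also hold background regions. A replicate peak is called strong here when it was among the 1047 strongest nuclear peaks of its list. Ranks count from the strongest peak, and the signal was never compared between lists.

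At skn-1 (WBGene00004804, IV, 5651039 to 5660384 on ce11, minus strand), 8 pooled summits lay in the window, and 7 of them were inside the annotated gene. The gene has 4 annotated 5′ ends, and the longest transcript, T19E7.2a.1, encodes the SKN-1A form. The transcript T19E7.2c.1 starts 4779 bp further in and encodes SKN-1C, the form known from the intestine. The 101 bases centred on the 4 strongest sites are shown because they carry the skn-1 result and differ in sequence. Capitals mark a GATA motif (TGATAA or TGATAG or AGATAA or AGATAG), a SKN-1 motif (AATATCAT, AATGTCAT, ATTATCAT, ATTGTCAT, TATATCAT, TATGTCAT, TTTATCAT or TTTGTCAT) or the GA repeat word GAGAGA, each on either strand. The SKN-1 words ATTATCAT and TTTATCAT hold a GATA motif on the other strand. The sequences are from the RefSeq WBcel235 genome, which is the ce11 build.
skn-1 site 1, pooled rank 999 (chrIV:5656070-5656170, plus strand): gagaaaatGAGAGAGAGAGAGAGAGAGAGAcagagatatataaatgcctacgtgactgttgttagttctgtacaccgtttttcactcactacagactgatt
skn-1 site 2, pooled rank 1056 (chrIV:5657099-5657199, plus strand): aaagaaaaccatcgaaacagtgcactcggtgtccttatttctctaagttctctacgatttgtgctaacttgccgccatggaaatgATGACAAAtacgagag
skn-1 site 3, pooled rank 1673 (chrIV:5659675-5659775, plus strand): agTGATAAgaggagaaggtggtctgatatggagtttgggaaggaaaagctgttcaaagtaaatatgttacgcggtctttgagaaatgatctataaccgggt
skn-1 site 4, pooled rank 2968 (chrIV:5655599-5655699, plus strand): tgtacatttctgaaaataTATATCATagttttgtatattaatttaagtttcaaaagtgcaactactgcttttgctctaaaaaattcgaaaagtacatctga

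Site 1 was the only optimal summit of skn-1, with a signal of 40.5 and rank 999 of 1047, near the lower end of that list at 39.9. The deposited −log10 q-value was 2.35 there and 2.63 and 2.73 at the optimal summits of wdr-23. Site 1 lay at 5656120 in an intron of the long transcript, 515 bp upstream of the 5′ end of T19E7.2c.1, and no other protein-coding gene had it in its window. Its sequence holds no GATA and no SKN-1 motif within 50 bp of the summit. It holds a GA repeat that does not reach the summit base, in which the word GAGAGA starts at 9 positions. Across the list, 39.4% of optimal summits had a GATA motif in this span, 6.21% a SKN-1 motif and 20.8% a GAGAGA word. A GA repeat without a GATA motif, as at site 1, was found at 12.8% of optimal summits. The GA repeat was chosen for counting after the sequences were seen.

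Site 2 fell just outside the optimal list, with a signal of 39.7 and rank 1056. It lay 1544 bp upstream of the 5′ end of T19E7.2c.1 and holds a SKN-1 motif on the minus strand, and no GATA motif. Site 3, with a signal of 33.2, lay 659 bp downstream of the first 5′ end and holds a TGATAA. Site 4, with a signal of 26.7, lay 44 bp upstream of the 5′ end of T19E7.2c.1 in AT-rich sequence (24.8% GC, against a median of 43.6% at optimal summits) and holds a SKN-1 motif. At the first 5′ end itself the nearest summit was 17 bp upstream, with a signal of 20.2 and rank 6997. The deposited −log10 q-value was 2.15 at site 2, 1.38 at site 3, 0.631 at site 4 and 0.153 at the summit of rank 6997.

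At wdr-23 (WBGene00008419, I, 7595776 to 7602221, plus strand), which has 5 annotated 5′ ends, 2 optimal and 4 further pooled summits were found. The stronger optimal summit had a signal of 47.2 and rank 647 and lay at 7597007 in an intron, 7 bp upstream of the 5′ end of the transcript D2030.9b.1. The other had a signal of 43.6 and rank 801 and lay at 7595560, 216 bp upstream of the first 5′ end, that of D2030.9a.2. The next pooled summit had a signal of 25.7 and rank 3296 and lay 67 bp upstream of the 5′ end shared by D2030.9d.1 and D2030.9e.1. Its −log10 q-value was only 0.536. It had a match at rank 314 in replicate 1 and 15382 in replicate 5, and none in replicates 2 and 4. Each of the 3 strongest pooled summits of wdr-23 thus lay close to a different annotated 5′ end, but the third was outside the optimal list. The nearest annotated 5′ end of any protein-coding gene belonged to wdr-23 for all 3, and both optimal summits were in the window of wdr-23 alone. The side of the rank 647 summit varied: D2030.9b.1 starts 1238 bp from the first 5′ end, and the matches lay at 1188, 1298, 1215 and 1244 bp in replicates 1, 2, 4 and 5. The rank 801 summit had a GATA motif and 1 GAGAGA word within 50 bp. The rank 647 summit had neither of these nor a SKN-1 motif, and its 101 bases held 58.4% GC.

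**Figure D1:**
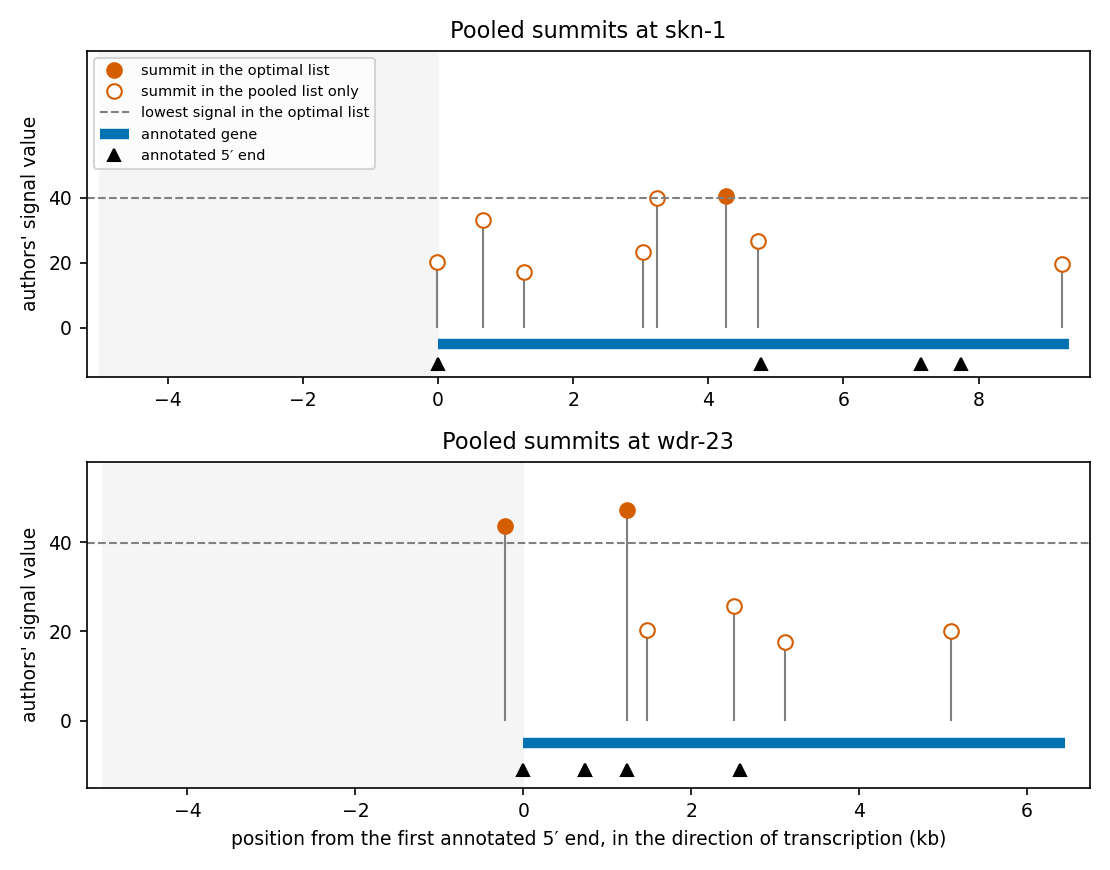
Pooled summits at skn-1 and wdr-23, with the authors' signal value on the y axis and the position from the first annotated 5′ end in kb on the x axis; the shaded part is the 5000 bp upstream. The optimal skn-1 summit (signal 40.5) lies inside the gene before a later 5′ end. The optimal wdr-23 summits (signals 47.2 and 43.6) lie close to 2 different 5′ ends.

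Of the 14 summits at skn-1 and wdr-23, 12 were inside the annotated genes. When the window was cut to the 5000 bp upstream of the first 5′ end, 1 of the 6 genes still had an optimal summit, wdr-23, against 6.33% of all genes. In that window none of the 6 had a strong peak in 2 or more replicates. Both windows are also long, 14346 bp at skn-1 and 11446 bp at wdr-23, where the median gene has 7027 bp. Among genes with a window of at least 11446 bp, 11.2% had an optimal summit. Among the optimal peaks above their median signal of 50.9, 0 of the 6 genes had a summit, which follows from the ranks 647, 801 and 999 of their optimal summits. No share over all genes or summits is given for this cut, for strong peaks in the upstream window or for summits inside genes. Those counts therefore cannot be read against a background.

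The strongest skn-1 peak was at site 2 in replicates 1 and 5, at site 4 in replicate 2 and at site 3 in replicate 4. The best rank in the skn-1 window was 4532 in replicate 1, 640 in replicate 2, 395 in replicate 4 and 408 in replicate 5. Replicates 2, 4 and 5 thus had a strong peak. Replicate 5 had 3, at sites 1, 2 and 3, so that replicates 4 and 5 shared a strong peak at site 3. Replicate 1 was the weakest and had none. Taking each site alone within 100 bp, site 1 ranked 9440, 7873, 4019 and 576 in replicates 1, 2, 4 and 5 and was strong in 1 of them. Site 2 ranked 4532, 1343 and 408 in replicates 1, 4 and 5 and had no match in replicate 2. Site 3 ranked 395 in replicate 4 and 991 in replicate 5 and had no match in replicates 1 and 2. Site 4 matched a peak in replicate 2 alone, at rank 640.

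At wdr-23 the best rank was 81 in replicate 1, 260 in replicate 2, 2177 in replicate 4 and 833 in replicate 5. Here replicate 4 was the weakest, and its best peak, 656 bp downstream of the first 5′ end, matched no pooled summit. The rank 647 summit had matches at ranks 354, 260, 4637 and 833 in replicates 1, 2, 4 and 5, so it was strong in 3 of them. The rank 801 summit ranged more widely, at 81, 2030, 4570 and 26427, and was strong in replicate 1 alone. All 3 optimal summits of the 2 genes had a match at some rank in all 4 replicates, which held for 40.4% of the 1047 optimal summits. A match to a strong peak in at least 2 replicates was found for 1 of the 3, the rank 647 summit of wdr-23, against 60.8% of optimal summits. The optimal list was made from these same replicates, so these matches are not independent of it.

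**Figure D2:**
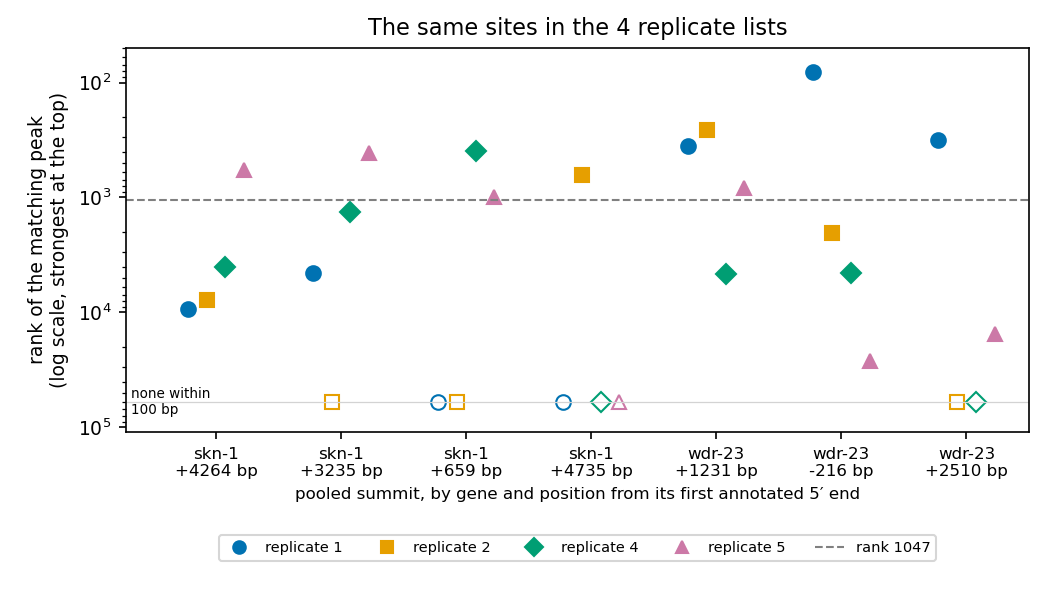
Rank of the matching peak (within 100 bp, log axis, strongest at the top) in each of the 4 replicate lists for 4 skn-1 and 3 wdr-23 summits, labelled by position from the first 5′ end; open symbols mark no match. The wdr-23 summit at +1231 bp is above the rank 1047 line in 3 replicates, while each skn-1 summit is above it in 1 or 2.

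Counted by gene, a strong peak was present at wdr-23 in replicate 1, at skn-1 and wdr-23 in replicates 2 and 5, and at skn-1 in replicate 4. The share of all genes with one was 7.57%, 7.71%, 7.3% and 7.63% in replicates 1, 2, 4 and 5. Both genes had a strong peak in 3 of the 4 replicates. The share of all genes, 7.45%, was counted for the looser rule of at least 2 replicates. The median of the 4 best ranks was 524 at skn-1 and 546 at wdr-23, and the median of this value over all genes was 10611.5. None of these values over all genes was limited to windows as long as those of skn-1 and wdr-23, 14346 and 11446 bp. With 5000 bp upstream alone the median best rank was 8307.5 at skn-1 and 3300 at wdr-23. The 2 regulators overlapped in their replicate ranks, and neither was the stronger in every replicate.

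None of the 4 enzyme genes had a strong peak in any replicate. Only 7.3% of all genes in replicate 4 to 7.71% in replicate 2 had one. Most genes thus lack a strong peak, and its absence does not set the 4 enzyme genes apart. The promoters of gst-4, gcs-1 and gst-30 are shown for comparison because SKN-1 and GATA words stand close to the 5′ end there although no pooled summit lay within 1000 bp upstream to 200 bp downstream of it. Each sequence runs from 250 bp upstream to 50 bp downstream of the 5′ end in the direction of the gene, from the RefSeq WBcel235 genome, and capitals mark a GATA or a SKN-1 motif as spelled above.
gst-4 promoter (chrIV:10141975-10142274, plus strand): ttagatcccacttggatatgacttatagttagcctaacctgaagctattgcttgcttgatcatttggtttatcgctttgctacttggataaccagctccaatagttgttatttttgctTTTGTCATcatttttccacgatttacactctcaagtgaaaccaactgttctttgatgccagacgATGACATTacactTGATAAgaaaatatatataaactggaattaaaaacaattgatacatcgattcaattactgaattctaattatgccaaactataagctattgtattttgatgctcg
gcs-1 promoter (chrII:9038252-9038551, minus strand): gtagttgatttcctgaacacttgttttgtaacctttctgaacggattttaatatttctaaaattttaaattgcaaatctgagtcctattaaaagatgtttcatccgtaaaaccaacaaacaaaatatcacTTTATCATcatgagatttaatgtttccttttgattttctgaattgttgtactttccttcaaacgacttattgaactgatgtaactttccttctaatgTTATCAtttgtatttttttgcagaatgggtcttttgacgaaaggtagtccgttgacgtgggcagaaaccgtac
gst-30 promoter (chrII:4935005-4935304, minus strand): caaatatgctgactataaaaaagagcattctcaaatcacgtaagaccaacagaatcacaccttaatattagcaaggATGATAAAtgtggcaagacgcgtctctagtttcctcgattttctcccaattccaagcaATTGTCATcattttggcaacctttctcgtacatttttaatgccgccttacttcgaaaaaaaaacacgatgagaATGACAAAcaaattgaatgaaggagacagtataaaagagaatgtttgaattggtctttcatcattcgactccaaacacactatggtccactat

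At gst-4 (WBGene00001752, IV, 10142225 to 10143099, plus strand), the optimal and pooled lists had 0 summits in the window. The best rank was 13644, 15098, 17239 and 16512 in replicates 1, 2, 4 and 5, all weaker than 10611.5, the median over all genes of the median best rank. These 4 peaks lay 974, 3595, 4657 and 4206 bp upstream of the 5′ end. The nearest optimal summit to the 5′ end was 12981 bp away, where the median over all genes was 43602 bp. The promoter holds SKN-1 words starting 132 and 68 bp upstream and a TGATAA starting 55 bp upstream. Another glutathione S-transferase gene, gst-2, lies upstream in the opposite direction, and dhs-12 overlaps gst-4, so the window is shared.

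At gcs-1 (WBGene00001527, II, 9035562 to 9038301, minus strand), 0 optimal and 3 pooled summits were in the window. The 3 ranked 7580, 12516 and 13921 and lay 3946, 4898 and 2356 bp upstream, in each case nearer to the 5′ end of F37B12.3 than to that of gcs-1. Their −log10 q-values were 0.132, 0.0356 and 0.0262. The best rank was 6587, 3101, 20137 and 9090 in replicates 1, 2, 4 and 5, so replicate 2 was the strongest and replicate 4 the weakest. Near the start of the gene, replicate 2 had a summit 179 bp downstream of the 5′ end at rank 12788 and replicate 5 one 171 bp downstream at rank 9090. Replicate 1 had one 695 bp upstream at rank 24674, and replicate 4 had none within 1000 bp upstream to 200 bp downstream. In the promoter, a SKN-1 word starting 120 bp upstream holds a GATA motif on the other strand, and a second GATA motif starts 23 bp upstream.

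At gst-30 (WBGene00001778, II, 4933883 to 4935054, minus strand), 1 pooled summit of rank 6487 lay 3339 bp upstream, inside another gene, ZK546.4. It had a −log10 q-value of 0.172 and no match within 100 bp in any replicate. The best rank was 3282, 29456, 6256 and 23305 in replicates 1, 2, 4 and 5, and these peaks lay at different places, 3505 and 3844 bp upstream, 825 bp downstream and 1004 bp upstream. No replicate listed a summit within 1000 bp upstream to 200 bp downstream of the 5′ end. SKN-1 words start 174, 116 and 43 bp upstream, and the first of them holds a GATA motif.

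At gst-10 (WBGene00001758, V, 2561690 to 2564645, plus strand), no list had a summit in the window of 7956 bp. The same was true in all 4 replicate lists for 1.5% of all genes. The sequence there is repeated: 7.34% of its 32-base words occurred once in the genome, against 97% to 99.9% at the other 5 genes and a median of 98.2% over all genes. A copy on the same chromosome, at V, 2447770 to 2455813, shared 90.9% of the words and carries F56A4.3, which RefSeq annotates as a protein with a glutathione S-transferase N-terminal domain. A further 74 loci shared a shorter stretch, and all 75 had 0 summits in the 4 replicate lists. The handling of reads with several placements was not given in the sources used. The part of the repeats in the missing summits was not tested, and the value at gst-10 does not show a lack of ELT-3.

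**Figure D3:**
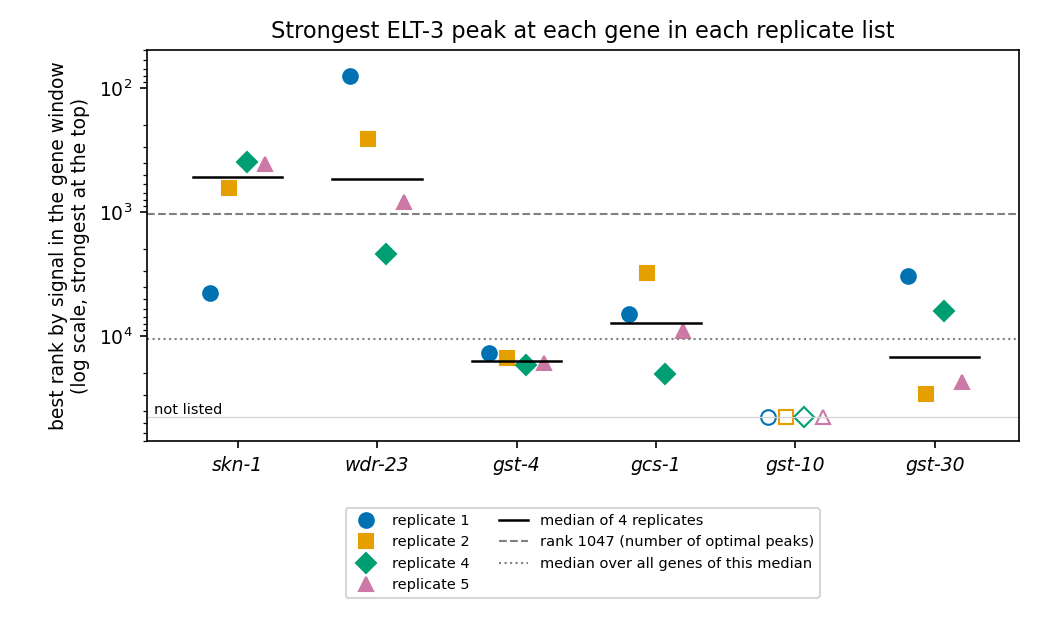
Best rank by signal in the gene window in each replicate list (log axis, strongest at the top), with the median of the 4 replicates as a bar, rank 1047 dashed and the median over all genes dotted. Each of skn-1 and wdr-23 is above rank 1047 in 3 of the 4 replicates, the values at gst-4, gcs-1 and gst-30 are between 3101 and 29456, and gst-10 is not listed in any replicate.

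Within 250 bp upstream to 50 bp downstream of the first 5′ end, a SKN-1 motif was present at 5 of the 6 genes, all but skn-1, against 16.5% of all genes. A GATA motif was present at 5 of the 6, all but gst-10, against 54.5%. In 1000 bp upstream the counts were again 5 of 6 for both motifs, against 43.2% and 89.9% of all genes. At the 18 pooled summits of the 6 genes, 5 had a GATA motif within 50 bp and 4 a SKN-1 motif, against 25.5% and 5.16% of all pooled summits. Within 25 bp the counts were 3 and 0, and TGATAA alone within 50 bp was found at 1 of the 18. No share of all pooled summits is given for these narrower searches, so the 3 counts cannot be read against a background.

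The 7 wider lists place the 6 genes in their pathway. Of 24 regulators of SKN-1, 6 had an optimal summit in the window (25%), next to 7.62% of all genes. A strong peak in at least 2 replicates was found for 5 of the 24 (20.8%), next to 7.45% of all genes. Besides skn-1 and wdr-23, the strongest were elt-3 itself (rank 151, signal 76), mdt-15, which encodes a Mediator subunit (rank 232, signal 65.7), and sel-1, an endoplasmic reticulum degradation gene needed for SKN-1A (rank 314, signal 59.8). The mdt-15 summit was closer to W04D12.1, whose 5′ end it preceded by 1275 bp, and held a GATA motif. The sel-1 summit lay 3689 bp upstream of its own gene. The sixth was nsy-1, a kinase gene of the stress pathway that acts through PMK-1 on SKN-1, at rank 1018, and it was named after its value was seen. Without skn-1 and wdr-23, 4 of 22 regulators had an optimal summit (18.2%), and without elt-3 as well 3 of 21 did (14.3%). Strong peaks in at least 2 replicates were then found for 3 of the 22 and 2 of the 21. The tagged transgene carries elt-3, and the part of extra copies in the elt-3 summits was not tested. The windows of the regulators had a median of 9337 bp, longer than the 7027 bp of all genes.

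Among 44 glutathione S-transferase genes, 5 had an optimal summit (11.4%), and 2 had a strong peak in at least 2 replicates (4.55%, against 7.45% of all genes). The strongest was gst-42 (rank 244, signal 64.8), with a GATA motif and its summit 57 bp upstream of its own 5′ end. The next, gst-9 (rank 559) and gst-40 (rank 673), had summits nearer to pgm-1 and to the collagen gene col-103. The neighbours gst-26 and gst-27 shared 1 summit of rank 701, 338 bp upstream of gst-27. Of 67 UDP-glucuronosyltransferase genes, which encode another class of detoxification enzymes, 5 had one (7.46%), led by ugt-58 (rank 536), ugt-19 (rank 541), ugt-13 (rank 596) and ugt-25 (rank 795). The first 3 lay 264, 194 and 136 bp upstream of their own 5′ ends, and the ugt-25 summit lay 514 bp downstream. All 4 of these summits held a GATA motif, where 39.4% of all optimal summits had one. A strong peak in at least 2 replicates was found for 3 of the 67 genes (4.48%, against 7.45% of all genes). The ugt-19 and ugt-13 windows had a strong peak in 1 replicate each, with median best ranks of 4271.5 and 9392.5. Of the 11 genes of glutathione synthesis and peroxidases, which include gcs-1, 0 had an optimal summit, against 7.62% of all genes. A strong peak in at least 2 replicates was found for 1 of the 11 (9.09%, against 7.45% of all genes). With so few genes, neither count is far from the share of all genes.

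Among 16 antioxidant enzyme genes, 2 had an optimal summit (12.5%). These were sod-4, an extracellular superoxide dismutase gene, with rank 229 at 1943 bp upstream, and the thioredoxin gene trx-1, with rank 996. The trx-1 summit was nearer to B0228.7, and the trx-1 window had a strong peak in 0 replicates. Of 11 other SKN-1 reporter and target genes, dhs-8, a short-chain dehydrogenase gene, had an optimal summit (rank 465, signal 53). It lay 1001 bp upstream of the dhs-8 5′ end, and the dhs-8 window had a strong peak in 3 replicates. Among 33 proteasome subunit genes, which SKN-1A is known to activate, 2 had an optimal summit (6.06%), rpn-8 and pas-5. The strongest was at rank 18 (signal 138) for rpn-8 and rank 485 (signal 52.5) for pas-5. Both windows had a strong peak in all 4 replicates. The strongest summit of each was nearer to another gene, egg-5 for rpn-8 and ubc-25 for pas-5. The median best pooled rank was 3925 for the regulators, 5811 for the proteasome subunits, 10801 for the glutathione S-transferases and 10398 for all genes. A pooled summit was in the window of 78.8% of the proteasome subunit genes, next to 62.2% of all genes. The share was 87.5% for the regulators, 81.8% for the other reporter and target genes and 70.1% for the UDP-glucuronosyltransferases. It was 56.8% for the glutathione S-transferases, 50% for the antioxidant enzymes and 36.4% for glutathione synthesis and peroxidases. A strong peak in at least 2 replicates was found for 1 of the 16 antioxidant enzyme genes (6.25%) and 3 of the 33 proteasome subunit genes (9.09%). It was found for 1 of the 11 other reporter and target genes (9.09%) and for 7.45% of all genes. No list was tested against the others.

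**Figure D4:**
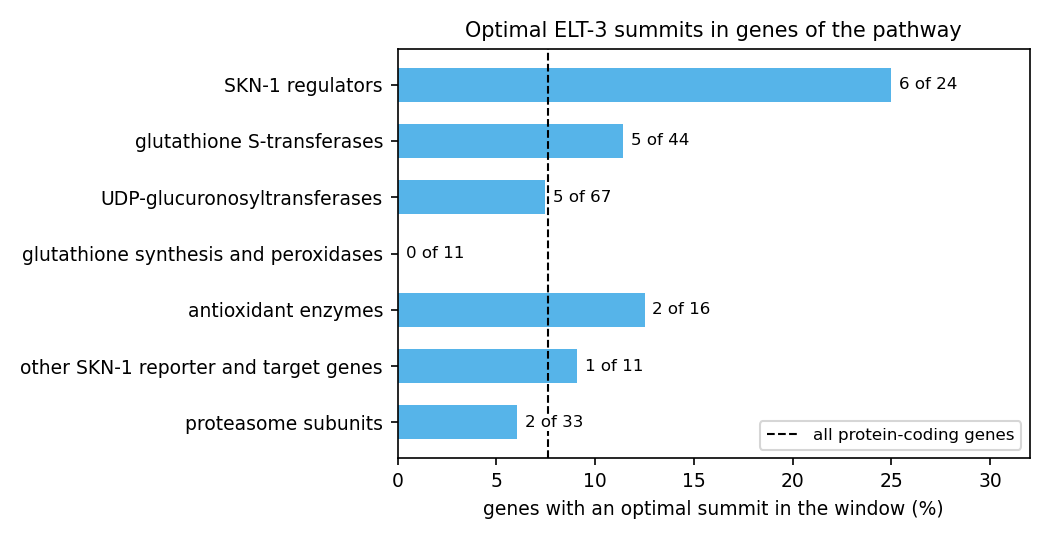
Share of genes with an optimal summit in the window, in percent, for 7 lists, with the count beside each bar and all protein-coding genes (7.62%) as the dashed line. The regulators of SKN-1 have the longest bar (6 of 24, or 3 of 21 without skn-1, wdr-23 and elt-3). The enzyme and proteasome lists lie between 0% and 12.5%.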

How the data were processed

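ELT-3 ChIP-seq peak lists in narrowPeak form were used on the ce11 build. Per the file headers, 1 list per replicate and 1 on pooled reads held peaks and background for IDR, each called against a control from another experiment that was not analysed here, and the optimal list held the peaks past the IDR threshold. The list of replicate 2 was assigned from the alignment that the listings of its 3 libraries name. The signal value that the authors deposited for each peak served only to rank peaks within a list. The deposited −log10 q-value per peak was used as an alternative ranking. The peak caller and aligner were not given in the sources used here. Depth is unknown.

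Summits were placed in gene windows from the Ensembl release 115 annotation of WBcel235, whose chromosomes are those of ce11, and sequence came from the RefSeq genome of the same assembly. Mitochondrial peaks were left out of ranks. Motifs were searched on both strands within 50 bp of a summit. A summit was matched within 100 bp. Uniqueness was the share of 32-base words found once in the genome, counting both strands. The functions were tested on simulated data (Python 3.11.15, pandas 2.3.3, numpy 2.4.6). With 1 group no test was run, and counts are set beside the share of all genes. The genes, lists and windows were chosen with earlier results of these data known. Besides the 6 genes, the text names up to 4 genes of each list with the strongest optimal summit. Beyond that rule, nsy-1 and the gene that shares the summit of gst-26, gst-27, were named after their values were seen. The alternatives were other windows, overlap in place of summits, fewer or more peaks, other motif and matching distances, ranking by q-value and leaving out each replicate. The ce10 lists were not used, and no coordinates were converted.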

Additional observations from a re-analysis of the deposited data

Results flagged for a closer look

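Of 10 quantities compared over the 4 replicates (best rank and number of summits at 5 genes, gst-10 being listed in no replicate), 2 had 1 replicate far from the other 3. The best rank at skn-1 was 4532 in replicate 1, where the other replicates had 640, 395 and 408. At gst-30 replicate 5 listed 2 summits in the window and each other replicate 1, a gap that a single background region sets. Chance flags about 1 in 20 groups of normally distributed values. The rate need not hold for ranks and does not hold for counts this small.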

How the results depend on the processing

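The count of genes with an optimal summit was 2 with 2000 or 1000 bp upstream to the 3′ end, with 1000 bp upstream to 200 bp downstream of every 5′ end, with the nearest 5′ end alone and with any overlap of the peak. It was 1 with 5000 bp upstream alone and 0 among optimal peaks above their median signal of 50.9. The count with a pooled summit was 4 and moved to 2 with 2000 or 1000 bp upstream to the 3′ end, with 1000 bp upstream to 200 bp downstream of every 5′ end and with the nearest 5′ end alone, since the gcs-1 and gst-30 summits lie further upstream and near other genes. The count with a strong peak in at least 2 replicates was 2 without each replicate in turn and with fewer or more strong peaks, and 0 with 5000 bp upstream alone. In that window the median best rank was 8307.5 at skn-1 and 3300 at wdr-23. Without each replicate in turn it was 408 to 640 at skn-1, 260 to 833 at wdr-23, 15098 to 16512 at gst-4, 6587 to 9090 at gcs-1 and 6256 to 23305 at gst-30. Keeping the mitochondrial peaks in the ranking was added after the data were seen and moved no count. Pooled summits with a GATA motif numbered 5, and 3 within 25 bp or 1 for TGATAA alone, and those with a SKN-1 motif numbered 4, and 0 within 25 bp. The cause of the differences with window and motif was not tested beyond the construction of each setting. Apart from optimal summits with 5000 bp upstream alone, no share over all genes or summits is given for these alternative settings. No paired analysis was possible because there is 1 group. An optimal summit depends on the authors' IDR threshold, and with depth unknown a missing summit does not show a lack of ELT-3.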
